A study of Mus musculus with 4 samples.

Results

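The genes of bone morphogenetic protein (BMP) and transforming growth factor beta (TGF-β) signalling were followed in the MC3T3-E1 line of pre-osteoblasts, made from the calvaria of C57BL/6 mice. The 42 genes were taken from a list of ligands, receptors, Smads, antagonists and Id target genes, and all 42 were found by gene symbol among the 21335 symbols of the array. Each gene is given by its brightest feature over the 4 arrays. The arrays were citalopram at day 7, control at day 7, citalopram at day 3 and control at day 3, with 1 array per group. Citalopram, a selective serotonin reuptake inhibitor, was present at 0.0001 mol per litre (100 µM) in proliferation medium, and control cells had that medium alone for the same time. Both arms were grown in medium with 1% fetal bovine serum and seeded at 50000 cells per well in 6-well plates, with 3 wells per arm. The sources used here do not say whether the wells of an arm were pooled. The series asks how citalopram exposure bears on osteogenesis.

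BMPs, TGF-βs and activins bind pairs of type I and type II receptor kinases, which phosphorylate receptor Smads. Smad1 and Smad5 carry the BMP branch and Smad2 and Smad3 the TGF-β and activin branch, and both enter the nucleus with Smad4. In bone, BMPs drive mesenchymal cells towards osteoblasts, while TGF-β is stored in the matrix by latent binding proteins and is released when bone is resorbed. Inhibitory Smads, secreted antagonists and corepressors limit each step.

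Values are log2 expression per feature as deposited. A gene was counted in a comparison when the brighter of its 2 arrays reached a floor, the 40th percentile of kept features on that array (5.97 to 6.04). Of the 42 genes, 36 were above the floor on at least 1 array, and all of these were above it on all 4 arrays. The other 6 lay below it throughout: the ligand genes Bmp2 (5.27 to 5.32), Bmp3 (4.97 to 5.09) and Bmp7 (5.71 to 5.88), and the receptor genes Bmpr1b (5.17 to 5.20), Acvr2b (5.51 to 5.79) and Acvrl1 (5.77 to 5.95). No difference is read from these 6. Across all features, Pearson's r between arrays was 0.986 to 0.995. Of 14 listed osteoblast lineage markers, 12 were measured, and Runx2 and Bglap were not among them. Of the 12 measured, 10 were above the floor on at least 1 array, including Sp7, Dlx5, Col1a1 and Sparc. Alpl lay at the floor (5.93 to 6.09) and passed it on 2 arrays. Ibsp and Phex were below the floor on every array. Citalopram exceeded control for 7 of 10 at day 7 (median 0.03) and 8 of 10 at day 3 (median 0.16). Over all features 51.4% were higher at day 7 (median 0.01) and 57.7% at day 3 (median 0.03). Sp7 differed by 0.08 and 0.46 at these days, and Dlx5 by 0.23 and 0.42. Day 7 minus day 3 was -1.61 with citalopram and -1.32 in control for Dmp1, and 0.47 and 0.68 for Col1a1. The summed linear level of this list was 40604 with citalopram and 39329 in control at day 7, and 38070 and 34686 at day 3. Of the markers of other cell types, 3 of 7 for macrophages (Lyz2, Cd14 and Cd68), 2 of 8 for adipocytes (Pparg and Cebpa), 4 of 7 for chondrocytes (Sox9, Col2a1, Col9a1 and Col10a1), 5 of 7 for muscle (Acta1, Des, Ckm, Pax7 and Myod1) and 1 of 7 for endothelium (Vwf) were above the floor on at least 1 array. Ptprc, Csf1r, Adipoq, Acan, Myog and Pecam1 were below it on every array. Lyz2, the brightest gene of the macrophage list, was higher with citalopram by 0.47 at day 7 and 0.57 at day 3. Cd14 differed by 0.15 and -0.04 at these days, and Cd68 by 0.15 and -0.01. Of the counted chondrocyte markers, 1 of 3 was higher with citalopram at day 7 and 2 of 4 at day 3. Over all features the shares were 51.4% and 57.7%. Sox9 was higher by 0.28 at day 7 and 0.41 at day 3. Col2a1 differed by -0.22 at day 7 and 0.51 at day 3. The summed linear level of the macrophage list was 1059 with citalopram and 874 in control at day 7, and 1247 with citalopram and 1017 in control at day 3. That of the chondrocyte list was 3315 with citalopram and 3247 in control at day 7, and 3248 with citalopram and 2479 in control at day 3. The muscle list summed to 866 with citalopram and 954 in control at day 7, and to 911 with citalopram and 1021 in control at day 3. Over the 4 arrays the adipocyte list ranged from 403 to 436 and the endothelial list from 338 to 349. The part of these lists in the results below was not tested. With 1 array per group, a difference between a pair of arrays has no replicate check, so these differences carry no p-value. In bulk RNA, a change in the share of cells that express a gene and a change in RNA per cell cannot be told apart.

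At day 7 citalopram left the 36 genes spread to both sides of control, with 19 higher and 17 lower, where 51.4% of all features were higher. Their median log2 difference was 0.01, against 0.01 over all 12341 features counted. A log2 difference of at least 0.322 was reached upwards by 2 genes and downwards by 2, against 5.83% and 5.95% of all features, and 0 passed 1.5-fold in either direction, a fold reached by 1.47% of all features. The higher genes were the receptor gene Tgfbr2 and the Id gene Id4. The lower genes were the ligand gene Tgfb1 and Bmp1, which encodes a procollagen-processing protease.

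At day 3 most of these genes were higher with citalopram, 30 of 36, where 57.7% of all 12361 counted features were higher. The median log2 difference was 0.18, against 0.03 over all features. A log2 difference of 0.322 was reached upwards by 6 genes and downwards by 0, against 5.01% and 2.6% of all features, and again 0 passed 1.5-fold, against 0.728% of all features. The 6 were the ligand gene Tgfb2, the receptor gene Tgfbr2, the BMP antagonist gene Grem1, the Smad genes Smad1 and Smad6, and Smurf2, a ubiquitin ligase gene for receptors and Smads. Under quantile normalization, cyclic loess or median centring 29 of 36 were higher. Genes of mitosis, the cell division markers fixed as a comparison list, moved with the same contrast: 19 of 19 were lower with citalopram at day 7 (median -0.64) and 19 of 19 at day 3 (median -0.24). The summed linear level of that list was 30998 with citalopram and 47748 in control at day 7, and 38909 with citalopram and 46420 in control at day 3. The part of this shift in the differences below was not tested.

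**Figure D1:**
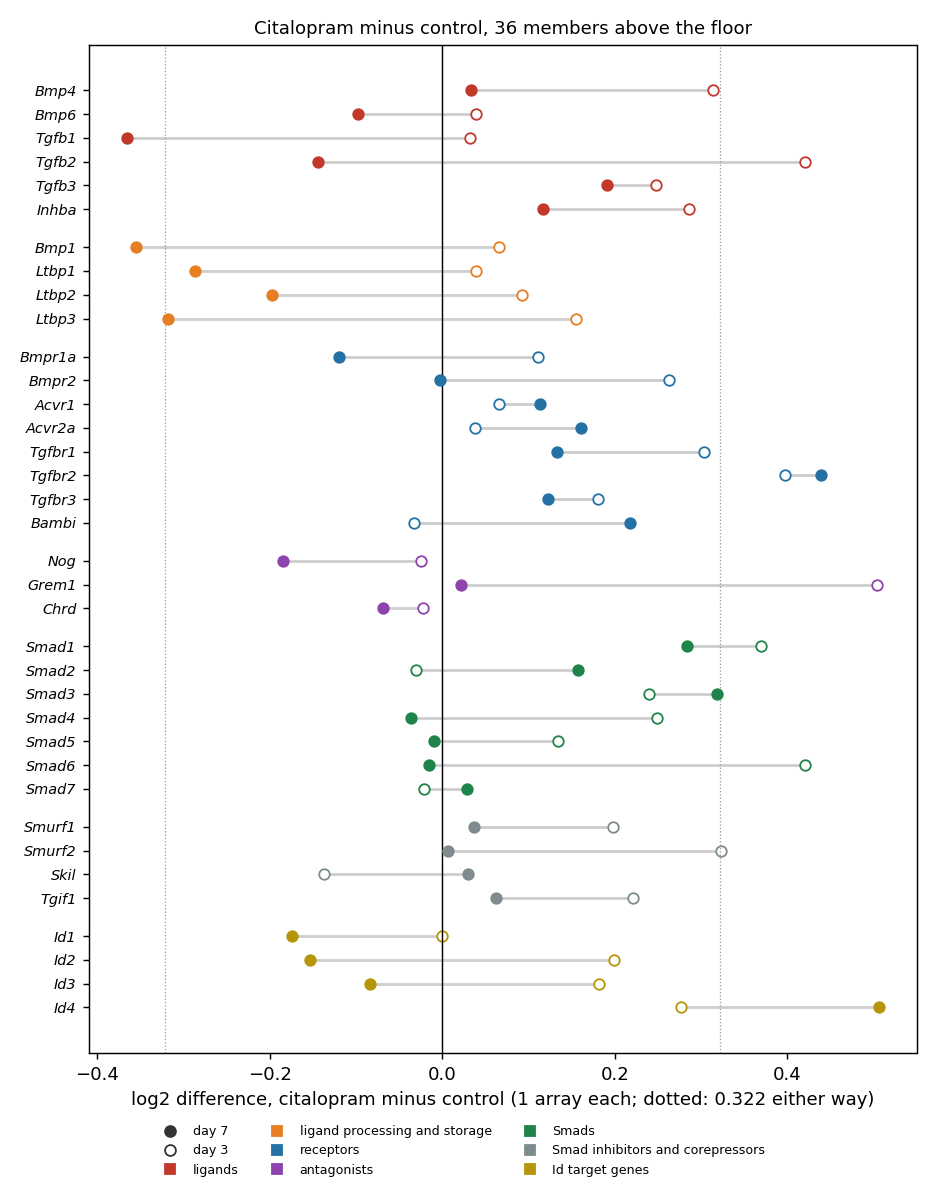
Log2 difference, citalopram minus control, for the 36 genes above the floor, grouped by role, with day 7 filled and day 3 open; dotted lines mark 0.322 either way and each point rests on 1 pair of arrays. The 4 genes of ligand processing and storage sit left of zero at day 7 and right of it at day 3, while Tgfbr2 and Id4 lie to the right at both days.

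Among ligands, at day 3 all 6 genes above the floor exceeded control with citalopram, with log2 differences of 0.03 to 0.42. At day 7, 3 of 6 did (2 of 6 with median centring). Over all features the share was 57.7% at day 3 and 51.4% at day 7. Whether the ligand genes move as a group was not tested. Tgfb2, a TGF-β isoform gene, had 10.08 with citalopram and 10.22 in control at day 7, and 10.41 with citalopram and 9.99 in control at day 3. Citalopram at day 3 was the highest of its arrays and control at day 3 the lowest, and the difference was 0.42 at day 3 (1.34-fold) and -0.14 at day 7. Tgfb1, the isoform most abundant in bone matrix, had 9.54 with citalopram and 9.91 in control at day 7, and 10.28 with citalopram and 10.25 in control at day 3. Both day 7 arrays were below both day 3 arrays, and at day 7 citalopram was lower by 0.37 on the log2 scale (1.29-fold). Tgfb3 was higher with citalopram at both days, at 12.05 against 11.86 in control at day 7 and 12.20 against 11.95 in control at day 3. Inhba, which encodes the activin A subunit, was also higher at both days, with differences of 0.12 at day 7 and 0.29 at day 3. Bmp4, a BMP expressed by osteoblast precursors, had 11.05 with citalopram and 11.01 in control at day 7, and 11.41 with citalopram and 11.10 in control at day 3. The array of citalopram at day 3 stood above the other 3. Bmp6 was close to the floor (6.19 to 6.29), with differences of -0.10 at day 7 and 0.04 at day 3.

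The genes of ligand processing and storage were lower with citalopram at day 7 in 4 of 4, by 0.20 to 0.35 on the log2 scale, and higher at day 3 in 4 of 4, by 0.04 to 0.15. The signs of all 4 genes were the same under quantile normalization, cyclic loess and median centring. At day 3, however, Ltbp1 was then at 0.0001 after quantile normalization and 0.0039 after cyclic loess, which is no difference from control. Bmp1, whose protease trims procollagen and cleaves the antagonist chordin, had 10.38 with citalopram and 10.74 in control at day 7, and 10.91 with citalopram and 10.84 in control at day 3. Its array of citalopram at day 7 was the lowest of the 4. Ltbp1, a latent TGF-β binding protein gene, had 11.62 with citalopram and 11.91 in control at day 7, and 11.83 with citalopram and 11.79 in control at day 3. Ltbp3, of the same family, had 9.94 with citalopram and 10.26 in control at day 7, and 10.13 with citalopram and 9.97 in control at day 3. Ltbp2, a matrix protein gene of the family, stood near the floor (6.30 to 6.52), with -0.20 at day 7 and 0.09 at day 3.

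Among receptors, Tgfbr2, the type II TGF-β receptor gene, had a citalopram difference of about the same size at both days. It had 11.19 with citalopram and 10.75 in control at day 7, and 10.59 with citalopram and 10.19 in control at day 3. Citalopram was higher by 0.44 at day 7 (1.36-fold) and by 0.40 at day 3 (1.32-fold), and both day 7 arrays exceeded both day 3 arrays. Tgfbr1, the type I partner, was higher with citalopram by 0.13 at day 7 and 0.30 at day 3, and the co-receptor gene Tgfbr3, betaglycan, by 0.12 and 0.18 at the same days. The BMP type II receptor gene Bmpr2 had 11.92 with citalopram and 11.93 in control at day 7, and 11.98 with citalopram and 11.72 in control at day 3, so control at day 3 was the low array. Its type I partner Bmpr1a differed by -0.12 at day 7 and 0.11 at day 3. The receptor genes Acvr1 (0.11 at day 7 and 0.07 at day 3) and Acvr2a (0.16 and 0.04) were near zero or slightly higher. Bambi, a pseudoreceptor without a kinase domain, was 0.22 at day 7 and -0.03 at day 3.

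Of the secreted antagonists, Grem1, gremlin, which binds BMP2 and BMP4, had the largest day 3 difference of the 36 genes. It had 11.15 with citalopram and 11.13 in control at day 7, and 11.94 with citalopram and 11.44 in control at day 3. Citalopram was higher by 0.50 at day 3 (1.42-fold) and by 0.02 at day 7, and the 2 day 7 arrays were the lowest. Nog, noggin, and Chrd, chordin, lay nearer the floor (6.02 to 6.21 and 6.41 to 6.74). Their differences were -0.18 and -0.07 at day 7, and both were -0.02 at day 3.

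Among the Smads, Smad1 of the BMP branch and Smad3 of the TGF-β branch were higher with citalopram at both days. Smad1 had 8.62 with citalopram and 8.34 in control at day 7, and 8.50 with citalopram and 8.13 in control at day 3, differences of 0.28 and 0.37. Smad3 had 10.85 with citalopram and 10.53 in control at day 7, and 10.60 with citalopram and 10.36 in control at day 3, differences of 0.32 and 0.24. Smad6, an inhibitory Smad that restrains BMP receptors, had 8.85 with citalopram and 8.86 in control at day 7, and 8.93 with citalopram and 8.51 in control at day 3. For Smad6 the control array at day 3 was lower than the other 3. The common partner Smad4 had 11.08 with citalopram and 11.12 in control at day 7, and 11.24 with citalopram and 10.99 in control at day 3. Smad2 (0.16 at day 7 and -0.03 at day 3), Smad5 (-0.01 and 0.13) and the inhibitory Smad7 (0.03 and -0.02) differed less.

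Of the Smad inhibitors and corepressors, Smurf2 had 12.65 with citalopram and 12.64 in control at day 7, and 12.70 with citalopram and 12.38 in control at day 3. Its control array at day 3 was the low one. Smurf2 was the only one of the 42 with a second feature, which gave -0.12 at day 7 and 0.29 at day 3. Smurf1, a related ligase, differed by 0.04 at day 7 and 0.20 at day 3, and the corepressor gene Tgif1 by 0.06 and 0.22. Skil, whose product SnoN represses Smad transcription, had 8.40 with citalopram and 8.37 in control at day 7, and 8.86 with citalopram and 9.00 in control at day 3. Both day 7 arrays were below both day 3 arrays.

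The Id genes encode inhibitors of basic helix-loop-helix transcription factors and are direct targets of BMP Smads. Id4 had 10.29 with citalopram and 9.78 in control at day 7, and 9.68 with citalopram and 9.40 in control at day 3. Citalopram was higher by 0.51 at day 7 (1.42-fold), the largest day 7 difference of the 36 genes, and by 0.28 at day 3. The other 3 Id genes were lower with citalopram at day 7, Id1 by 0.17, Id2 by 0.15 and Id3 by 0.08 on the log2 scale. At day 3 Id2 and Id3 were higher by 0.20 and 0.18, and Id1 did not depart from control (9.31 on both arrays).

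A limma fit with additive terms for treatment and day was run over 12586 features above the floor, which uses the days as the replicates of each treatment. It called 0 of 36 genes for citalopram over both days, as it called 0% of all features. At an unadjusted p under 0.05, 4 of 36 genes were higher (Tgfbr2, Id4, Smad1 and Smad3) and 0 lower, against 9.05% of all features in either direction. Of all 12586 features, 686 were higher and 453 lower at that p. Tgfbr2 was higher by 0.42 ± 0.10 (SE, adjusted p = 0.34 by limma) and Id4 by 0.39 ± 0.11 (adjusted p = 0.389 by limma). For Smad1 and Smad3 the estimates were 0.33 ± 0.10 and 0.28 ± 0.10 (SE; adjusted p = 0.411 and 0.478 by limma). All 4 were higher in both pairs of arrays. The fit has 1 residual degree of freedom per gene, and limma draws the gene variances towards a common value, so the p-values rest largely on the size of the mean difference over the 2 days. The labels do not tie the arrays to separate cultures, and the spread may be technical.

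The citalopram difference was lower at day 7 than at day 3 for 27 of 36 genes, against 54.7% of all 12119 features counted at both days. The median change was -0.165 on the log2 scale, against -0.03 over all features. By at least 0.322, 8 genes had a lower difference at day 7 and 0 a higher one, against 10.9% of all features lower and 7.46% higher. These 8 were Tgfb2 (-0.56), Grem1 (-0.48), Ltbp3 (-0.47), Smad6 (-0.44), Bmp1 (-0.42), Tgfb1 (-0.40), Id2 (-0.35) and Ltbp1 (-0.33). The members of the group reached this by different routes: for Tgfb2, Grem1 and Smad6 the pair at day 3 was the wider one, and for Tgfb1, Bmp1, Ltbp1 and Ltbp3 the pair at day 7. Of the 36 genes, 19 had opposite signs at the 2 days, against 47% of all features, and 15 were higher with citalopram at both days, against 31.2%. Only Tgfbr2 of the 36 was higher by at least 0.322 at both days, against 0.908% of all features. With 1 array per group the change between days was not tested.

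Between day 7 and day 3 the differences of the 36 genes ran from -0.79 to 0.65, against -0.37 to 0.51 between citalopram and control. With citalopram, 25 of 36 genes were lower at day 7 than at day 3 (median -0.13, against -0.03 over all features), and in control 15 of 36 were lower (median 0.06, against -0.01 over all features). These medians depend on the scaling: after quantile normalization they were -0.13, against -0.09 over all features, with citalopram and 0.005, against -0.05, in control. The comparisons share arrays with those above and are given as values side by side. Of all features, 44.5% with citalopram and 47.7% in control were higher at day 7. With citalopram 3 genes were higher at day 7 by at least 0.322 and 7 lower, against 8.66% and 13.4% of all features. In control 4 were higher and 2 lower by that amount, against 6.11% and 7.4% of all features. At 1.5-fold the counts were 2 higher (Tgfbr2 and Id4) and 2 lower (Tgfb1 and Grem1) with citalopram, against 2.09% and 2.77% of all features, and 1 higher (Id3) and 1 lower (Skil) in control, against 1.23% and 1.12%. The median over all features of an array was higher at day 7 than at day 3 by 0.15 with citalopram and by 0.11 in control. Centring the arrays on their medians therefore lowers every day difference by that amount, and then 7 of 36 genes with citalopram and 16 of 36 in control were higher at day 7, against 11 and 21 as deposited.

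**Figure D2:**
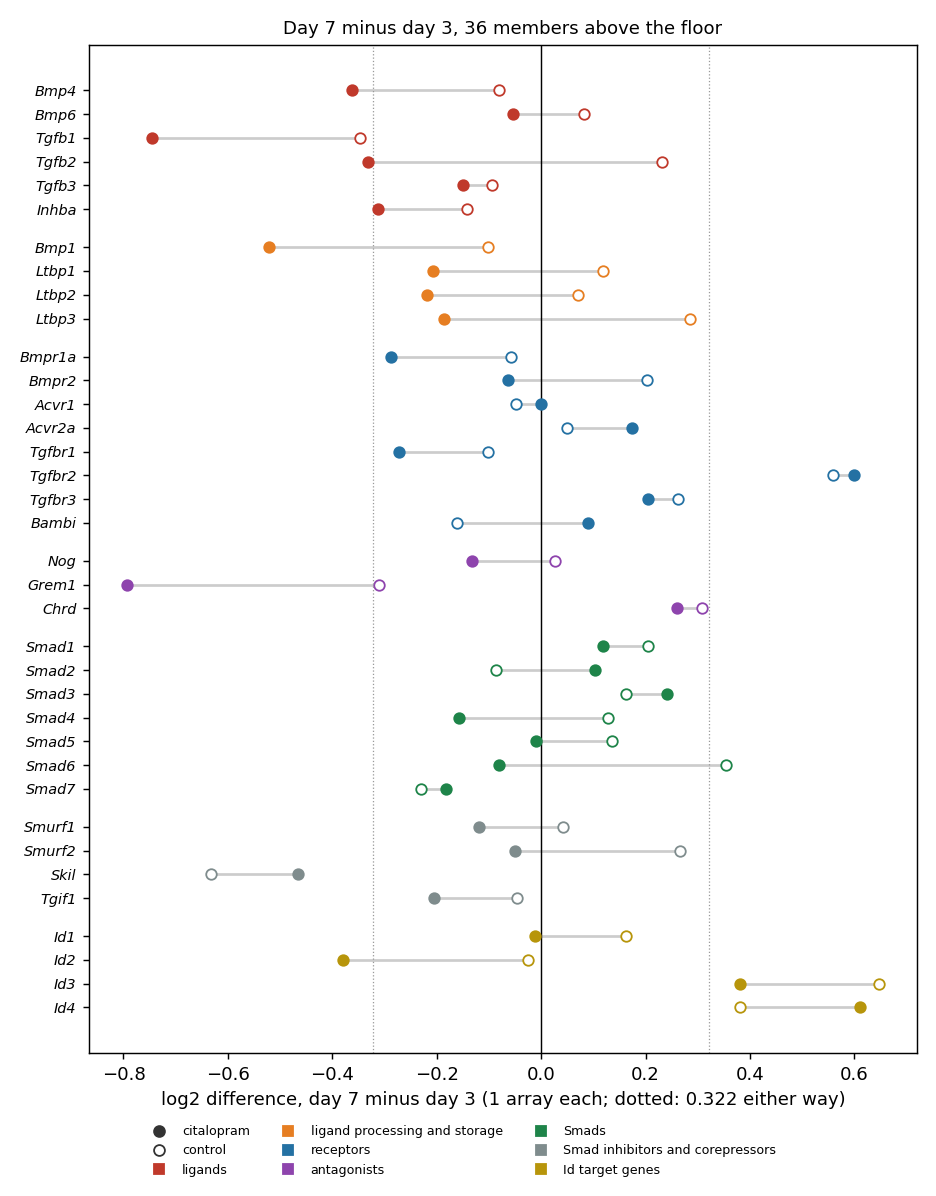
Log2 difference, day 7 minus day 3, for the 36 genes above the floor, with citalopram filled and control open; dotted lines mark 0.322 either way and each point rests on 1 pair of arrays. Tgfbr2, Id3 and Id4 lie right of the upper dotted line and Tgfb1 and Skil left of the lower one in both arms, while Grem1 is at -0.79 with citalopram and at -0.31 in control.

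Over both treatments limma called 2 of 36 genes for day, against 3.19% of all features (401 of 12586). For day the fit used the citalopram and control arrays as the replicates of each day. With 1 array per group these calls, and those for day on further pathway genes below, rest on no replicate cultures of a group. Tgfbr2 rose at day 7, by 0.60 with citalopram and 0.56 in control (estimate 0.58 ± 0.10 SE, limma adjusted p = 0.0267). Skil fell at day 7, by 0.47 with citalopram and by 0.63 in control on the log2 scale (estimate -0.55 ± 0.11 SE, limma adjusted p = 0.0364). Id3, Id4, Tgfb1 and Grem1 had estimates of like size that did not pass the threshold. Id3 had 10.28 with citalopram and 10.37 in control at day 7, and 9.90 with citalopram and 9.72 in control at day 3 (estimate 0.51 ± 0.11 SE, limma adjusted p = 0.0501). Id4 was higher at day 7 by 0.61 with citalopram and 0.38 in control (estimate 0.50 ± 0.11 SE, limma adjusted p = 0.0518). Tgfb1 was at -0.74 with citalopram and -0.35 in control (estimate -0.55 ± 0.12 SE, limma adjusted p = 0.0538), and Grem1 at -0.79 and -0.31 (estimate -0.55 ± 0.13 SE, limma adjusted p = 0.0632). At an unadjusted p under 0.05, 4 of 36 genes were higher (Chrd with Tgfbr2, Id3 and Id4) and 4 lower (Bmp1 with Tgfb1, Grem1 and Skil), against 20.4% of all features. With the arrays rescaled by quantile normalization or cyclic loess limma called 6 of 36, namely Id3, Id4, Tgfb1, Grem1, Tgfbr2 and Skil. With day as the only term it called 0. Leaving out the control array at day 7 from that fit gave 5 calls, and leaving out any other array gave 0.

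**Figure D3:**
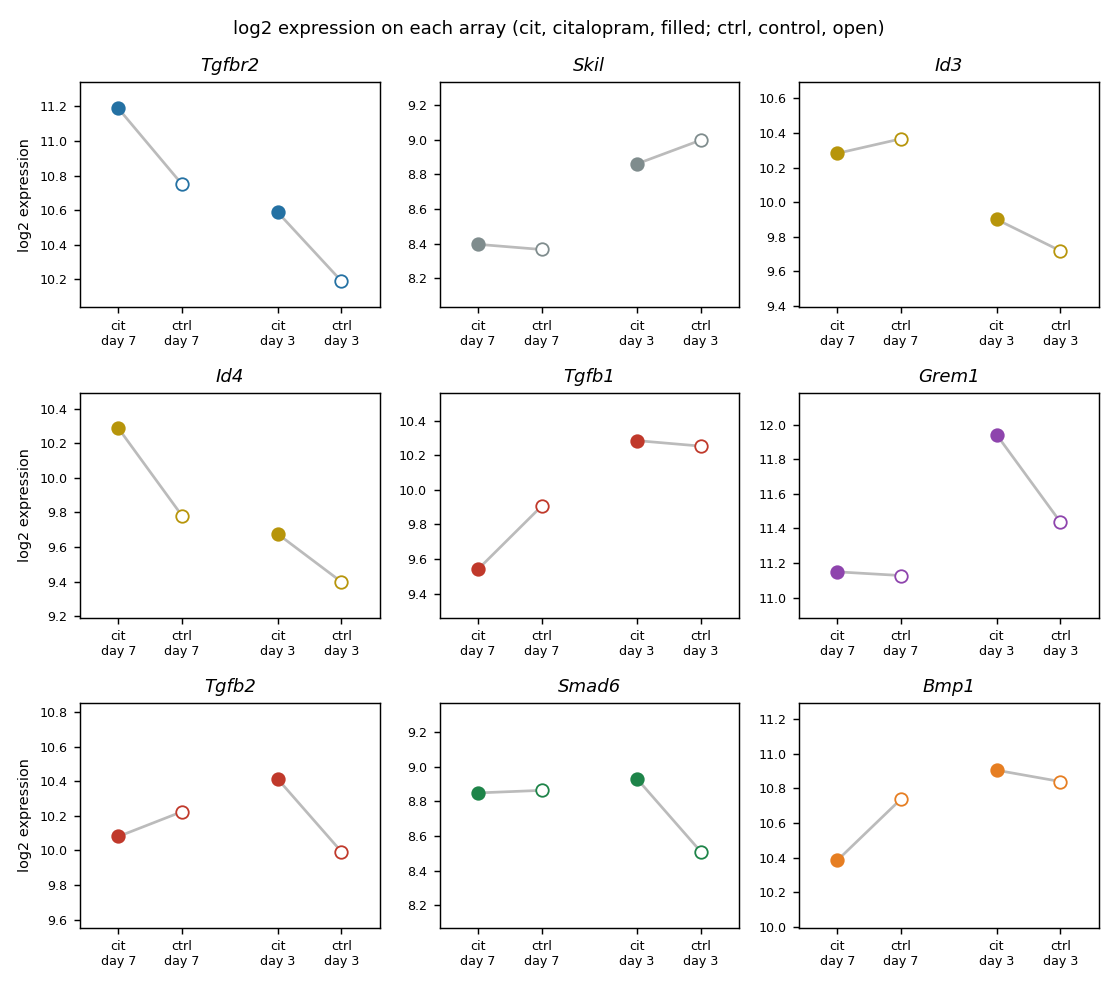
Log2 expression on each of the 4 arrays for 9 genes, with citalopram filled and control open, day 7 left of day 3, and the same height of scale in every panel. Tgfbr2, Id3 and Id4 are higher at day 7 than at day 3 in both arms and Skil and Tgfb1 lower, while for Smad6 the control array at day 3 stands below the other arrays.

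The promoters of Tgfbr2, Id3 and Id4 are shown, because Smads bind short motifs near the genes they regulate. On the deposited scale these were the 3 members higher at day 7 by at least 0.322 in both arms. With median centring Id3 with citalopram was at 0.23 and Id4 in control at 0.27, while Tgfbr2 stayed past 0.322 in both arms. Tgfbr2 was the member with a limma call whose promoter was at hand, and Id3 and Id4 were added after their values were seen. Each run is the 250 bases before the RefSeq start on GRCm38.p6, read along the gene, with matches to the Smad motifs CAGAC and GGCGCC on either strand in capitals. Tgfbr2 lies on the minus strand at chr9:116175364-116175613, Id3 on the plus strand at chr4:136143572-136143821 and Id4 on the plus strand at chr13:48260866-48261115.
Tgfbr2: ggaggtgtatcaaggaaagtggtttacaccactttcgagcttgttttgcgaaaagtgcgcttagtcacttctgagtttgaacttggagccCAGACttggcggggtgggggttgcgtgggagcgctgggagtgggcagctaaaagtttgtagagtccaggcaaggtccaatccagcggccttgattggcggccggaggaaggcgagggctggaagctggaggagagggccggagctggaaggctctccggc
Id3: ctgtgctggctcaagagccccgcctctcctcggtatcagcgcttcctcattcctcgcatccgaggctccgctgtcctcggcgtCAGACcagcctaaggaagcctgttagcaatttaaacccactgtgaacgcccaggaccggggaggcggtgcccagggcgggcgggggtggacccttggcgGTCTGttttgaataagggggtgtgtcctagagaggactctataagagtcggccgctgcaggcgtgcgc
Id4: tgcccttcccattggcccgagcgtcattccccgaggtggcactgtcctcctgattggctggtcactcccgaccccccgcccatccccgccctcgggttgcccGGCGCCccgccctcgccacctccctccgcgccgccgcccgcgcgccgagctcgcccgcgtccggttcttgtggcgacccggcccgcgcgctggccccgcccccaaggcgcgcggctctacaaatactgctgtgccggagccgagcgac
CAGAC was found 1 time in the Tgfbr2 window and 2 times in that of Id3, once on each strand, and GGCGCC, which reads the same on both strands, at 1 place in that of Id4. In windows from 250 bases before to 50 after the start, CAGAC occurred for 53.2% and GGCGCC for 13.4% of 27025 genes, and for 17 and 9 of the 28 genes of the list with an entry. The joined motif of GGCGCC, any 5 bases and GTCT occurred for 0.0777% of all genes and for 0 of the 28. G and C made up 58.4% of the printed run of Tgfbr2, 62.8% of that of Id3 and 75.6% of that of Id4, against a median of 52.4% over all promoters. GGCGCC holds only G and C, and the part of base composition in these shares was not tested. A match describes the letters of the window only.

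Outside the 42 genes, 144 further genes of the pathway were listed in 7 groups, of which 101 were above the floor. They were chosen by function, with earlier results of these arrays known. At day 7, 50 of 99 counted were higher with citalopram (median 0.00), and at day 3, 81 of 100 were higher (median 0.11). For citalopram over both days limma called 0 of 101. At an unadjusted p under 0.05, 11 were higher and 1 lower, where 9.05% of all features passed in either direction. Of all 12586 features, 686 were higher and 453 lower at that p. For day it called 1 higher and 5 lower, against 3.19% of all features.

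Fstl3, which encodes a follistatin-like activin and myostatin inhibitor, had 8.30 with citalopram and 8.78 in control at day 7, and 9.49 with citalopram and 9.43 in control at day 3, and fell (estimate -0.92, limma adjusted p = 0.0131). Furin, the convertase that cleaves TGF-β precursors, fell by 0.63 with citalopram and by 0.46 in control on the log2 scale (limma adjusted p = 0.0375). Of the other secreted antagonists and modulators 1 of 16 passed the test, of the latent TGF-β handling genes 1 of 12, and of the other receptors and other ligands 0 of 7 and 0 of 5, against 3.19% of all features. The integrin subunit gene Itgb3 was at -0.31 with citalopram and -0.63 in control without passing (limma adjusted p = 0.0698). Gdf6, a ligand gene near the floor, had 6.55 with citalopram and 5.72 in control at day 7, and 5.96 with citalopram and 5.80 in control at day 3, so only 1 of its arrays was above the floor.

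Of the TGF-β target genes, 2 of 21 fell and 1 rose by day, where 3.19% of all features were called. Pmepa1, which encodes a TGF-β-induced inhibitor of Smad2 and Smad3 and is also the 1 of 28 Smad partners that passed, fell by 0.76 with citalopram and by 0.51 in control on the log2 scale (limma adjusted p = 0.0244). Adam12, a TGF-β-induced metalloprotease gene, fell by 0.75 with citalopram and by 0.58 in control on the log2 scale (limma adjusted p = 0.0171). The type I collagen gene Col1a1 rose, by 0.47 with citalopram and 0.68 in control (limma adjusted p = 0.0345). Tgfbi, a TGF-β-induced matrix protein gene, had 8.48 with citalopram and 8.94 in control at day 7, and 9.07 with citalopram and 8.80 in control at day 3. Plaur, the urokinase receptor gene, was at -0.64 with citalopram and -0.35 in control (limma adjusted p = 0.0566). Of the BMP target genes 1 of 15 passed, against the same 3.19%, namely Tnfrsf11b, which encodes osteoprotegerin, an inhibitor of osteoclast formation. It fell by 1.18 with citalopram and by 0.63 in control on the log2 scale (limma adjusted p = 0.0146). For citalopram over both days limma called 0 of 15 BMP and 0 of 21 TGF-β targets. At day 3 citalopram exceeded control by at least 0.322 for 5 of 15 BMP targets, against 5.01% of all features. At day 7 it did for 1 of 14, against 5.83%, and 0 were lower by that amount at either day. The 5 include Sp7 and Dlx5, which are also among the osteoblast lineage markers above. Both target lists were chosen with earlier results of these arrays known, and whether either moves as a group was not tested. Of 21 TGF-β targets, 19 were above control at day 3, where 57.7% of all features were. At day 7, 14 were below control, 3 of them by at least 0.322, against 5.95% of all features. Rgs4, a regulator of G protein signalling, had 7.66 on both day 7 arrays, and 8.54 with citalopram against 7.75 in control at day 3, the only pathway gene past 1.5-fold with citalopram at that day.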

How the data were processed

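Total RNA (250 ng per array, per the labels' protocols) from 4 samples was hybridised to Affymetrix arrays after labelling with a whole-transcript kit. The deposited values are log2 expression for each feature on each array, as the authors made them, and the base is inferred from their range, 3.90 to 15.5. Per the submitters' processing notes Partek was used, and the sources used here do not give its version or role, nor any background correction, normalization or probe summarization. Of 35556 features, 21789 carried 1 gene symbol, 1621 several and 12146 none. Each gene kept its brightest feature, 20216 in all, and none of the 42 members' features carried a second symbol. Differences of log2 values were counted at 0.322 and at 1.5-fold above the floor at the 40th percentile. The tests came from R 4.3.3 and limma 3.58.1 (two-sided, by eBayes after lmFit, Benjamini-Hochberg over 12586 features, threshold 0.05), and the script was tested on simulated data. Precision is limited by the number of arrays. Alternatives were 3 rescalings, other floors, other feature rules, a trended prior, the tested term alone and leaving out arrays. Members and lists were chosen with earlier results of these data known. Genes were named where above the floor and past 0.322 in a comparison or called by limma, or as the brightest of their role, with the other members as ranges or differences. Pathway genes that are no members were named past 1.5-fold or when called, and 3 list genes on shared features were left out. Figures used Python 3.11.15 with matplotlib 3.10.9.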

Additional observations from a re-analysis of the deposited data

Results flagged for a closer look

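The citalopram difference had opposite signs at day 7 and day 3 in 19 of the 36 genes above the floor, against 47% of all features, and with 1 array per group the difference between days was not tested. Each value below is the difference at day 7 minus that at day 3, on the log2 scale. For ligands it was -0.56 for Tgfb2, -0.40 for Tgfb1 and -0.14 for Bmp6. For ligand processing and storage it was -0.47 for Ltbp3, -0.42 for Bmp1, -0.33 for Ltbp1 and -0.29 for Ltbp2. Receptors gave -0.27 for Bmpr2, -0.23 for Bmpr1a and 0.25 for Bambi. Smads and the corepressor gave -0.44 for Smad6, -0.29 for Smad4, -0.14 for Smad5, 0.0495 for Smad7, 0.19 for Smad2 and 0.17 for Skil. The Id genes gave -0.35 for Id2, -0.27 for Id3 and -0.17 for Id1. In several of these, among them Bmpr2, Smad5, Smad6, Skil and Id1, 1 of the pair of differences lay close to zero, and for Smad7 both did. Under quantile normalization, cyclic loess and median centring alike, Id1 and Skil were lower with citalopram at both days. Bmpr2 was higher at both days under quantile normalization and cyclic loess. The opposite signs of these genes thus depend on the scaling.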

How the results depend on the processing

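No paired analysis was possible because each group has 1 array and the labels number no replicates, beyond the additive fit itself, which compares citalopram with control within each day. Counts of the 36 genes past 0.322 kept within 1.5 times of the deposited scale in each comparison, except that median centring gave 17 in place of 10 for day 7 against day 3 with citalopram. Median centring turned the median difference of these genes to -0.041 for citalopram at day 7 and to -0.047 for day 7 against day 3 in control, and without a floor the median for citalopram at day 7 was -0.0057. For day 7 against day 3 with citalopram the median was -0.28 with median centring (-0.19 over all features) and -0.07 without a floor, and for citalopram at day 3 it was 0.12 without a floor. Limma called 0 of 36 genes for citalopram under every alternative run. Over all features its calls for citalopram were 131 after quantile normalization, 42 after cyclic loess, 39 after median centring and 6 with a floor at the 60th percentile, against 0 as reported. For day it called 6 of the 36 genes (1575 features) after quantile normalization, 6 (1086) after cyclic loess, 8 (2106) after median centring, 6 (719) with the higher floor, 4 with a trended prior and 1 (218) without a floor, which was Tgfbr2. With day alone in the fit it called 0 of 36 genes (84 features), and 0 to 5 genes when 1 array was dropped as well: features called were 33 without citalopram at day 3, 51 without control at day 3, 224 without citalopram at day 7 and 997 without control at day 7. Dropping an array from the additive fit leaves no residual degree of freedom. The floor alternatives change the number of features tested; for the other alternatives the cause was not tested. The alternatives for the change between days were chosen after seeing the data, and each kept its count of 8 within 1.5 times. Signal near background limits the 6 genes below the floor, and Bmp6, Ltbp2, Nog and Chrd close to it.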

Other observations

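The 36 genes had patterns by array that the comparisons above give only in part. Higher with citalopram at both days were 15 genes, against 31.2% of all features, and lower at both days were 2, Nog and Chrd. The 15 include all 3 TGF-β receptor genes above the floor, the type I and type II receptor genes Acvr1 and Acvr2a, and Smad1 and Smad3. Each of these was also higher at both days under quantile normalization, cyclic loess and median centring. With median centring Bmp4, Grem1, Smurf1 and Smurf2 were no longer higher at both days. The Smad partner and turnover genes outside the list gave no call for citalopram, with 0 of 28 by limma and 2 at an unadjusted p under 0.05, where 9.05% of all features had such a p.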
